A study of Mus musculus with 87 samples.

Results

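The 9 genes described here are the cytosolic and endosomal RNA sensor genes Ddx58, Ifih1, Dhx58, Ddx60 and Tlr3, the adaptor gene Mavs, and Eif2ak2, Adar and Znfx1, whose products bind double-stranded RNA or limit its effects. They were taken by gene symbol from 48526 genes of a table of sorted bulk nuclei and 48531 genes of a table of single nuclei, and all 9 were found in both. The nuclei came from the ventral midbrain of adult wildtype C57BL/6J mice of both sexes, injected by stereotaxy with 400 nL of saline or with 40 ng of recombinant IFN-γ in the same volume. For the bulk measurement, nuclei were sorted into a neuronal (NeuN+) and a non-neuronal (NeuN−) fraction, and 84 wells were sequenced from the 3′ end with unique molecular identifiers (UMIs), which count each captured RNA molecule once. The single nuclei came from 1 saline mouse and 2 IFN-γ mice killed at 48 h, and the comparisons ask whether IFN-γ changed the RNA of these genes, in which fraction, for how long and in which cells.

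In each fraction, IFN-γ wells numbered 6 at 6, 24, 48 and 72 h, and saline wells numbered 4 at 6, 48 and 72 h and 6 at 24 h. Every well carries the label NeuN+ in the deposit, and the fraction was taken by well barcode from the sample list that accompanies the study, whose treatment and time were those of the labels in every well. The wells of a treatment and time came from 2 to 3 mice without a record of the mouse behind each well, so the well is the unit of every bulk test. Some wells of a group therefore share a mouse, fractions of the same mice were treated as independent, and p-values, which measure the spread between wells, are too small for a difference between mice. Among the NeuN− IFN-γ wells at 6 h, the difference between replicates 2 and 5 was not told apart from sampling noise (p = 0.17, chi-square test). Their chi-square per degree of freedom was 1.02, the lowest of 186 pairs of wells, which reached 5.45. They were counted as 1 sample, which the test does not show them to be. That group therefore has n = 5, and 83 samples were compared.

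Wells held 20962 to 301445 UMIs in the NeuN− fraction (median 110248) and 277113 to 1684374 in the NeuN+ fraction (median 1064222). Summed markers of oligodendrocytes had a median of 7622 CPM (the UMIs of a gene scaled to a common total per well) in NeuN− and 342 in NeuN+ wells, and those of neurons 637 and 4819 CPM, in the direction of the fractions' names, while microglia markers were at 420 and 98.8 CPM. Xist, the X-inactivation RNA of females, was high and Y-linked RNA low in all wells of 48 h and in IFN-γ wells of 6 h, and the reverse held in IFN-γ wells of 24 and 72 h and in saline wells of 72 h, where 1 NeuN− well also had 1272 CPM of Xist. Of the 6 saline wells of 24 h in each fraction, 2 (replicates 5 and 6) were of the Y-linked kind of the IFN-γ wells, 2 were of the other kind and 2 held both RNAs, and saline wells of 6 h combined high Xist with 151 to 363 CPM of Y-linked RNA. A difference between 6 and 24 h can therefore not be told apart from the sex of the mice. IFN-γ wells of 24 and 72 h were of the same kind, but of the saline wells of 24 h only replicates 5 and 6 were. At 6 h, and at 24 h but for saline replicates 5 and 6, IFN-γ and saline wells also differed in sex-linked RNA. Comparisons that use these wells are therefore not balanced for sex.

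RIG-I (Ddx58) and MDA5 (Ifih1) are helicases that recognise double-stranded or otherwise unusual RNA in the cytosol and signal through MAVS on mitochondria to induce type I interferons. LGP2 (Dhx58) is a relative without the signalling domains that modulates both, DDX60 is an interferon-inducible helicase of a separate branch that has been described as a cofactor of RIG-I, and TLR3 senses double-stranded RNA in endosomes. PKR (Eif2ak2) stops translation through eIF2α when it binds double-stranded RNA, ADAR1 (Adar) edits adenosines in such RNA and thereby limits its recognition, and ZNFX1 is a helicase-like RNA sensor located at mitochondria.

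The promoters are shown first because IFN-γ is known to act on genes through GAS elements and, through IRF factors, at interferon-stimulated response elements (ISREs). RefSeq promoters on GRCm38.p6, from 250 bases before to 50 bases after the annotated start, were given for 8 of the 9 genes (11 promoters, none for Dhx58). The ISRE was searched as a pattern of 10 letters and the GAS element as one of 9 letters, each with unspecified bases between fixed arms, on both strands, and matches of the pair could share letters, which those in the members did not. An ISRE was matched in 4 members and a GAS element in 2, against 3.44% and 8.3% of all 32851 promoters, and 0.454% held both. The promoter of Ddx60 held the ISRE at 53 to 44 and again at 19 to 10 bases before the start, in the same 10 letters. The 250 bases that end at its start (chr8:61927837-61928086, plus strand) are given with both matches in capitals.
Ddx60: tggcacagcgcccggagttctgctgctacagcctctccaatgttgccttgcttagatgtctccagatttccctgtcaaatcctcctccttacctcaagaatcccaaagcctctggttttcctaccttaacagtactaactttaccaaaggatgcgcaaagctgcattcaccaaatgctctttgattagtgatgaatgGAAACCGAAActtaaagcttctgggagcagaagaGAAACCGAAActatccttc

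The other matches are given in windows of 30 bases, 5′ to 3′ on the strand of the gene, with the matched letters in capitals. That of Ddx58 (chr4:40239804-40239833, minus strand) lay at 2 to 11 bases after the start and was on the opposite strand, that of Ifih1 (chr2:62646206-62646235, minus strand) at 32 to 41 bases after, and that of Eif2ak2 (chr17:78882535-78882564, minus strand) at 18 to 27 bases after. GAS letters were found in Eif2ak2 at 178 to 170 bases before the start (chr17:78882732-78882761, minus strand) and in 1 promoter of Adar at 22 to 30 bases after it (chr3:89730729-89730758, plus strand). Neither motif was matched in the windows of Tlr3, Mavs and Znfx1. A match is a description of letters and not a binding site.
Ddx58, ISRE: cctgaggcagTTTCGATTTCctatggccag
Ifih1, ISRE: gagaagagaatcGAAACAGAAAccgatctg
Eif2ak2, ISRE: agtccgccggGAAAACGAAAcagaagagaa
Eif2ak2, GAS: cctgcagagctTTCCCAGAAtggaagccag
Adar, GAS: ggggaagccttTTCAAGGAAacgaaagtga

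Ddx60 (chromosome 8, 61928087 to 62038244, plus strand) rose after IFN-γ in both fractions at all 4 time points, and it was the only one of the 9 genes to pass the test in all 8 comparisons. The rise was 4.74-fold, 13.3-fold, 13.7-fold and 6.85-fold in NeuN− nuclei at 6, 24, 48 and 72 h, and 10.97-fold, 23.5-fold, 10.97-fold and 5.38-fold in NeuN+ nuclei. Differences were tested with edgeR's quasi-likelihood test across all genes that passed a filter on low counts, and genes counted as called had a log2 fold change over 1 in size and a Benjamini-Hochberg adjusted p under 0.01.

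In the NeuN− wells of 6 h, Ddx60 stood at 116, 85.6, 40.0 and 38.2 CPM after saline and at 95.4, 324, 378, 345 and 434 CPM after IFN-γ. The lowest IFN-γ well is the shallowest of all wells, with 20962 UMIs, of which 2 were Ddx60, and 4 of 5 IFN-γ wells were above every saline well. Ddx60 was higher after IFN-γ by a log2 fold of 2.24 ± 0.25 (SE; adjusted p = 2.9e-15 with edgeR). At 24 h the saline wells ran from 12.1 over a median of 29.1 to 66.2 CPM and the IFN-γ wells from 391 over 409 to 514 CPM. The means, 32.3 ± 22.2 (SD, n = 6) and 436 ± 52.3 CPM (SD, n = 6), had the largest difference in CPM of the 4 times, with a log2 fold change of 3.74 ± 0.27 (adjusted p = 1.8e-19, edgeR). The groups did not overlap at this time or at either of the later times. The saline replicates of 24 h that were Y-linked like the IFN-γ wells held 13.7 and 43.98 CPM.

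At 48 h the NeuN− saline wells held 15.6, 8.42, 29.5 and 37.5 CPM of Ddx60 and the IFN-γ wells 182 to 360 CPM with a median of 299. At 72 h the saline wells held 28.8, 7.44, 27.2 and 19.8 CPM and the IFN-γ wells 96.7 to 190 CPM with a median of 156. The mean after IFN-γ was thus 290 ± 58.6 CPM at 48 h and 152 ± 32.3 CPM at 72 h (SD, n = 6), while the saline means were 22.7 ± 13.2 and 20.8 ± 9.73 CPM (SD, n = 4). The log2 fold changes were 3.77 ± 0.32 (adjusted p = 1.5e-15, edgeR) and 2.78 ± 0.36 (adjusted p = 1.2e-08, edgeR).

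In NeuN+ nuclei, Ddx60 started from a lower level. The 6 h wells held 0, 14.1, 10.1 and 8.59 CPM after saline and 98.8 to 129 CPM with a median of 106 after IFN-γ, a log2 fold change of 3.46 ± 0.20 (adjusted p = 1.1e-16, edgeR). At 24 h the wells ran from 3.07 over 3.89 to 13.1 CPM after saline and from 121 over 141 to 153 CPM after IFN-γ, a log2 fold change of 4.55 ± 0.18 (adjusted p = 3.1e-18, edgeR). Means after IFN-γ were 111 ± 13.4 CPM at 6 h and 140 ± 11.2 CPM at 24 h (SD, n = 6), and no IFN-γ well of either time reached down to the saline wells.

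By 48 h the NeuN+ IFN-γ wells had 16.2 to 33.4 CPM of Ddx60 with a median of 23.9, against 0, 3.07, 0.841 and 4.62 CPM after saline (log2 fold change 3.46 ± 0.39, adjusted p = 1.8e-06, edgeR). At 72 h they had 10.5 to 18.8 CPM with a median of 16.3, against 1.93, 4.62, 3.67 and 1.59 CPM (log2 fold change 2.43 ± 0.36, adjusted p = 1.2e-05, edgeR). The wells of the groups were again apart, so that the groups of Ddx60 did not overlap in 7 of the 8 comparisons. Over all tested genes, every IFN-γ well was above every saline well for 6.07%, 5.95%, 2.25% and 1.7% of genes in NeuN− and for 4.66%, 2.53%, 0.905% and 3.47% in NeuN+ nuclei, in order of time. In bulk samples, fewer cells of a type and less RNA per cell cannot be told apart.

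Markers of the cell types moved with the treatment as well. In NeuN− wells the summed CPM of 6 oligodendrocyte markers, all detected, ran from 6921 to 7973 after saline and from 3816 to 4839 after IFN-γ at 6 h, and from 7044 to 8623 and from 2347 to 2944 at 24 h. At 48 and 72 h the medians were 8195 and 8178 after saline and 7489 and 7935 after IFN-γ. The 6 astrocyte markers ran from 557 to 1207 CPM after saline and from 1705 to 2267 CPM after IFN-γ at 24 h, and the 7 microglia markers from 420 to 548 and from 47.7 to 169.6 CPM at 6 h. The groups were apart in each of these early comparisons, oligodendrocyte and microglia markers lower and astrocyte markers higher after IFN-γ. In NeuN+ wells of 72 h, oligodendrocyte markers ran from 344 to 418 CPM after saline and from 600.1 to 700.1 CPM after IFN-γ, and astrocyte markers from 135 to 197 and from 211 to 247 CPM. At 6 h the oligodendrocyte markers of NeuN+ wells were lower after IFN-γ, at 157 to 209 against 288 to 403 CPM. The part of these markers in the changes of Ddx60 and the other members was not tested.

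**Figure D1:**
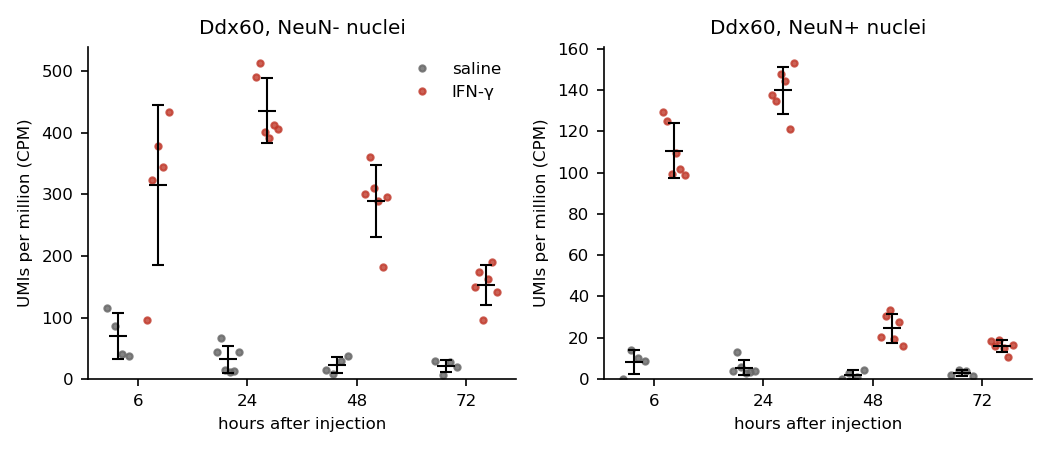
CPM of Ddx60 in every well, against hours after injection, for NeuN− nuclei (left) and NeuN+ nuclei (right, on its own scale). Points are wells, grey for saline and red for IFN-γ, and bars are the mean ± SD. The IFN-γ wells of 24 h sit between 391 and 514 CPM in NeuN− and between 121 and 153 CPM in NeuN+ nuclei, and in NeuN− nuclei at 6 h 1 IFN-γ well, at 95.4 CPM, lies among the saline wells.

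Counted over the members, calls were all increases. Called members of NeuN− nuclei numbered 5 of the 7 tested (6 h), 6 of 6 (24 h), 3 of 7 (48 h) and 2 of 7 (72 h), against 6.09%, 9.61%, 0.672% and 0.632% of all genes tested in the same fits. In NeuN+ nuclei the counts were 5 of 8, 5 of 8, 1 of 7 and 1 of 8, against 1.11%, 1.66%, 0.157% and 0.606% of all genes. The median log2 fold change of the tested members was 2.24, 2.96, 1.53 and 0.83 for the NeuN− fraction and 3.12, 2.74, 0.62 and 0.47 for the NeuN+ fraction, while that of all tested genes lay between −0.015 and 0.011. Members that passed the filter only through their level after IFN-γ had to differ, so these counts describe the members and are no test of the list.

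Ddx58 (chromosome 4, 40203773 to 40239828, minus strand), the gene of RIG-I, rose in both fractions at 6 and 24 h. In NeuN− wells of 6 h it stood at 7.25, 34.3, 19.99 and 19.1 CPM after saline and at 239, 112, 189, 119 and 222 CPM after IFN-γ. At 24 h the wells ran from 0 over 14.6 to 22.1 CPM after saline and from 73.6 over 96.7 to 119 CPM after IFN-γ. The log2 fold changes were 2.95 ± 0.41 (adjusted p = 2.3e-10, edgeR) and 2.52 ± 0.42 (adjusted p = 1.8e-06, edgeR), and the groups did not overlap. In NeuN+ nuclei the 6 h wells held 3.61, 4.69, 10.1 and 8.59 CPM after saline and 64.2 to 81.8 CPM with a median of 70.9 after IFN-γ. At 24 h they held 3.89 to 11.3 CPM (median 7.48) after saline and 49.0 to 72.3 CPM (median 55.0) after IFN-γ. The rises, 3.22 ± 0.22 (adjusted p = 1.8e-14) and 3.04 ± 0.20 (adjusted p = 7.2e-13) on the log2 scale, were of the order of those in NeuN− nuclei.

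At 48 h, Ddx58 was at 0 UMIs in all 4 NeuN− saline wells and at 19.1 to 56.9 CPM (median 40.3) in the IFN-γ wells. It was called, and the 27 UMIs summed over the IFN-γ wells were, for their depth, at least 6.60-fold higher than a floor of 3 UMIs over this saline group (6.08 CPM). The NeuN− saline means of 6, 24 and 72 h were 20.1, 14.0 and 16.5 CPM. The means after IFN-γ were alike at 48 and 72 h, 41.2 and 42.6 CPM, so the 48 h call rests on the saline wells at 0. At 72 h the saline wells held 28.8, 14.9, 9.08 and 13.2 CPM and the IFN-γ wells 27.4 to 56.4 CPM with a median of 44.3 (log2 fold change 1.24, adjusted p = 0.30), and the groups overlapped. In NeuN+ nuclei at 48 and 72 h the log2 fold changes were 0.62 and 0.63 (adjusted p = 0.59 and 0.46), with IFN-γ wells at 7.09 to 17.4 and 2.21 to 12.4 CPM.

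Ifih1 (chromosome 2, 62595798 to 62646255, minus strand), the gene of MDA5, had the highest log2 fold change of the members in NeuN− nuclei at 6 h. The wells held 7.25, 8.56, 10.0 and 9.55 CPM after saline and 429, 220, 194, 215 and 222 CPM after IFN-γ, where the well at 429 is again the shallowest. The log2 fold change was 4.52 ± 0.44 (adjusted p = 1.0e-19, edgeR). At 24 h, saline wells ran from 0 over 8.94 to 14.7 CPM and IFN-γ wells from 103 over 163 to 321 CPM, a log2 fold change of 4.21 ± 0.45 (adjusted p = 3.3e-12, edgeR). No saline well of either time came near an IFN-γ well. In NeuN+ nuclei, Ifih1 rose from 3.61, 2.34, 2.52 and 2.15 CPM to 31.3 to 49.8 CPM (median 35.9) at 6 h, a log2 fold change of 3.79 ± 0.34 (adjusted p = 4.6e-11). At 24 h it rose from 0 to 2.40 CPM (median 1.83) to 34.4 to 53.6 CPM (median 47.6), a log2 fold change of 4.67 ± 0.25 (adjusted p = 4.7e-15).

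The later values of Ifih1 were less even. In NeuN− nuclei at 48 h the saline wells held 20.7, 8.42, 19.7 and 25.0 CPM and the IFN-γ wells 0 to 77.1 CPM with a median of 49.2 (log2 fold change 1.23, adjusted p = 0.37). At 72 h they held 0, 7.44, 0 and 6.61 CPM against 18.1 to 54.7 CPM with a median of 36.2, and the gene was called (log2 fold change 3.02 ± 0.74, adjusted p = 0.0097, edgeR). That call rests on 2 saline UMIs and was lost when any of the 4 saline wells, or any of 4 of the 6 IFN-γ wells, was left out. In NeuN+ nuclei the log2 fold change was 2.13 ± 0.57 (adjusted p = 0.088) at 48 h and 0.13 (adjusted p = 0.95) at 72 h, and neither was called.

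Dhx58 (chromosome 11, 100694884 to 100704271, minus strand), the gene of LGP2, was close to the limit of detection. It did not pass the filter in NeuN− nuclei at any time, where groups held 0 to 11 UMIs in all. The 11 were those of the IFN-γ wells of 24 h, against 1 UMI in the saline wells of that time. In NeuN+ nuclei at 6 h, the saline wells summed to 2 UMIs and the IFN-γ wells to 28, at 2.15 to 8.29 CPM (median 3.76), with no overlap and a log2 fold change of 2.29 ± 0.80 (adjusted p = 0.093). This difference was not called, and counts this low do not settle whether Dhx58 changed. Dhx58 shares part of its span with the antisense gene Dhx58os, and whether counting used strand is not given, so reads of the pair may not be separable.

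Tlr3 (chromosome 8, 45395665 to 45411080, minus strand) was called in NeuN+ nuclei at 6 and 24 h. At 6 h the wells held 0, 1.17, 1.26 and 3.22 CPM after saline and 9.48 to 19.98 CPM (median 15.3) after IFN-γ, a log2 fold change of 3.01 ± 0.49 (adjusted p = 3.5e-05, edgeR). At 24 h they held 0 to 3.07 CPM (median 1.85) and 4.69 to 15.6 CPM (median 8.16), a log2 fold change of 2.44 ± 0.44 (adjusted p = 3.2e-04, edgeR). The groups did not overlap at either time. In NeuN− nuclei of 6 h the wells held 21.8, 8.56, 0 and 28.6 CPM after saline and 47.7, 40.4, 24.3, 50.9 and 57.9 CPM after IFN-γ, a log2 fold change of 1.39 with an adjusted p of 0.094, and at 24 and 48 h it did not pass the filter there. At 72 h the log2 fold change was 0.51 in NeuN− (adjusted p = 0.90) and 0.72 in NeuN+ nuclei (adjusted p = 0.71). The antisense gene Gm45542 lies within the span of Tlr3.

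Mavs (chromosome 2, 131234063 to 131248025, plus strand), the adaptor that RIG-I and MDA5 share, was called in none of the 4 comparisons in which it was tested. Its log2 fold change was −0.42 in NeuN− nuclei at 48 h (adjusted p = 0.94) and 0.27, −0.02 and −1.56 ± 0.73 in NeuN+ nuclei at 24, 48 and 72 h (adjusted p = 0.82 at 24 h and 0.27 at 72 h, edgeR). Group means ran from 3.66 to 17.6 CPM in NeuN− nuclei, on 2 to 9 UMIs a group, and from 1.01 to 4.03 CPM in NeuN+ nuclei, so a change of moderate size was not detectable at this depth. In NeuN− nuclei, where 6, 24 and 72 h were not tested, saline means were 16.7, 17.6 and 3.66 CPM at these times. The means after IFN-γ were 5.00, 5.52 and 6.90 CPM, lower at 6 and 24 h and higher at 72 h.

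Eif2ak2 (chromosome 17, 78852564 to 78882573, minus strand), the gene of the kinase PKR, rose in both fractions at 6 and 24 h and in NeuN− nuclei at 48 h. In NeuN− wells of 6 h it stood at 21.8, 34.3, 40.0 and 19.1 CPM after saline and at 143, 180, 218, 203 and 280 CPM after IFN-γ (log2 fold change 2.86 ± 0.35, adjusted p = 3.0e-13, edgeR). At 24 h, saline wells ran from 0 over 12.9 to 24.2 CPM and IFN-γ wells from 139 over 150 to 186 CPM (log2 fold change 3.41 ± 0.39, adjusted p = 4.9e-11). At 48 h, saline wells held 5.19, 16.8, 19.7 and 0 CPM and IFN-γ wells 38.6 to 98.1 CPM with a median of 59.7 (log2 fold change 2.53 ± 0.54, adjusted p = 0.0016). The groups were apart at these 3 times, and the 48 h call was lost without saline replicate 1 or without IFN-γ replicate 1. At 72 h the log2 fold change was 0.83 (adjusted p = 0.63).

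In NeuN+ nuclei, the 6 h wells of Eif2ak2 held 10.8, 7.03, 3.79 and 3.22 CPM after saline and 77.7 to 104 CPM (median 98.1) after IFN-γ. With a log2 fold change of 4.11 ± 0.23 (adjusted p = 2.9e-17, edgeR) it was the member that changed most in this fraction at 6 h. At 24 h the wells held 3.07 to 7.72 CPM (median 4.61) and 64.1 to 79.3 CPM (median 74.8), a log2 fold change of 3.83 ± 0.17 (adjusted p = 3.6e-17). At 48 and 72 h the log2 fold changes were 1.22 ± 0.35 (adjusted p = 0.14) and 1.18 ± 0.44 (adjusted p = 0.13), neither called, although at 72 h all IFN-γ wells, at 4.30 to 8.75 CPM, were above the saline wells at 3.87, 3.70, 0 and 3.18 CPM. Eif2ak2 overlaps the opposite-strand genes Gm26637 and n-R5s29.

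Adar (chromosome 3, 89715022 to 89753446, plus strand), the editing enzyme ADAR1, changed in NeuN− nuclei of 24 h. The wells ran from 27.4 over 31.2 to 59.3 CPM after saline and from 69.6 over 90.8 to 141 CPM after IFN-γ, with no overlap and a log2 fold change of 1.29 ± 0.35 (adjusted p = 0.0037, edgeR). The call was lost without saline replicate 5. At 6, 48 and 72 h in NeuN− nuclei the log2 fold changes were 0.69, 0.24 and −0.16, and none was called. In NeuN+ nuclei Adar had 81.4 to 173 CPM over all 42 wells, and its log2 fold changes were 0.20, −0.13, −0.32 and −0.01 (adjusted p = 0.28, 0.49 and 0.16 at 6, 24 and 48 h). The gene overlaps Chrnb2, a neuronal acetylcholine receptor gene on the other strand.

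Znfx1 (chromosome 2, 167035793 to 167063015, minus strand) was called in NeuN− nuclei at 6 and 24 h. At 6 h it held 43.5, 34.3, 19.99 and 85.9 CPM after saline and 95.4, 144, 150, 164 and 203 CPM after IFN-γ, a log2 fold change of 1.77 ± 0.33 (adjusted p = 6.3e-06, edgeR). At 24 h the wells ran from 14.4 over 39.6 to 66.2 CPM and from 60.3 over 86.7 to 153 CPM, a log2 fold change of 1.40 ± 0.35 (adjusted p = 0.0014). The 24 h groups overlapped, and this call was lost without saline replicate 5 or IFN-γ replicate 2. In NeuN+ nuclei of 24 h all IFN-γ wells, at 27.7 to 41.4 CPM, were above all saline wells, at 16.04 to 23.2 CPM, but the log2 fold change of 0.94 ± 0.15 (adjusted p = 3.5e-05) was under the fold limit. At 6 h it was 0.81 (adjusted p = 0.029), again with no overlap, and at 48 and 72 h it was 0.35 and 0.31. Znfx1 overlaps the non-coding gene Zfas1 at its start.

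**Figure D2:**
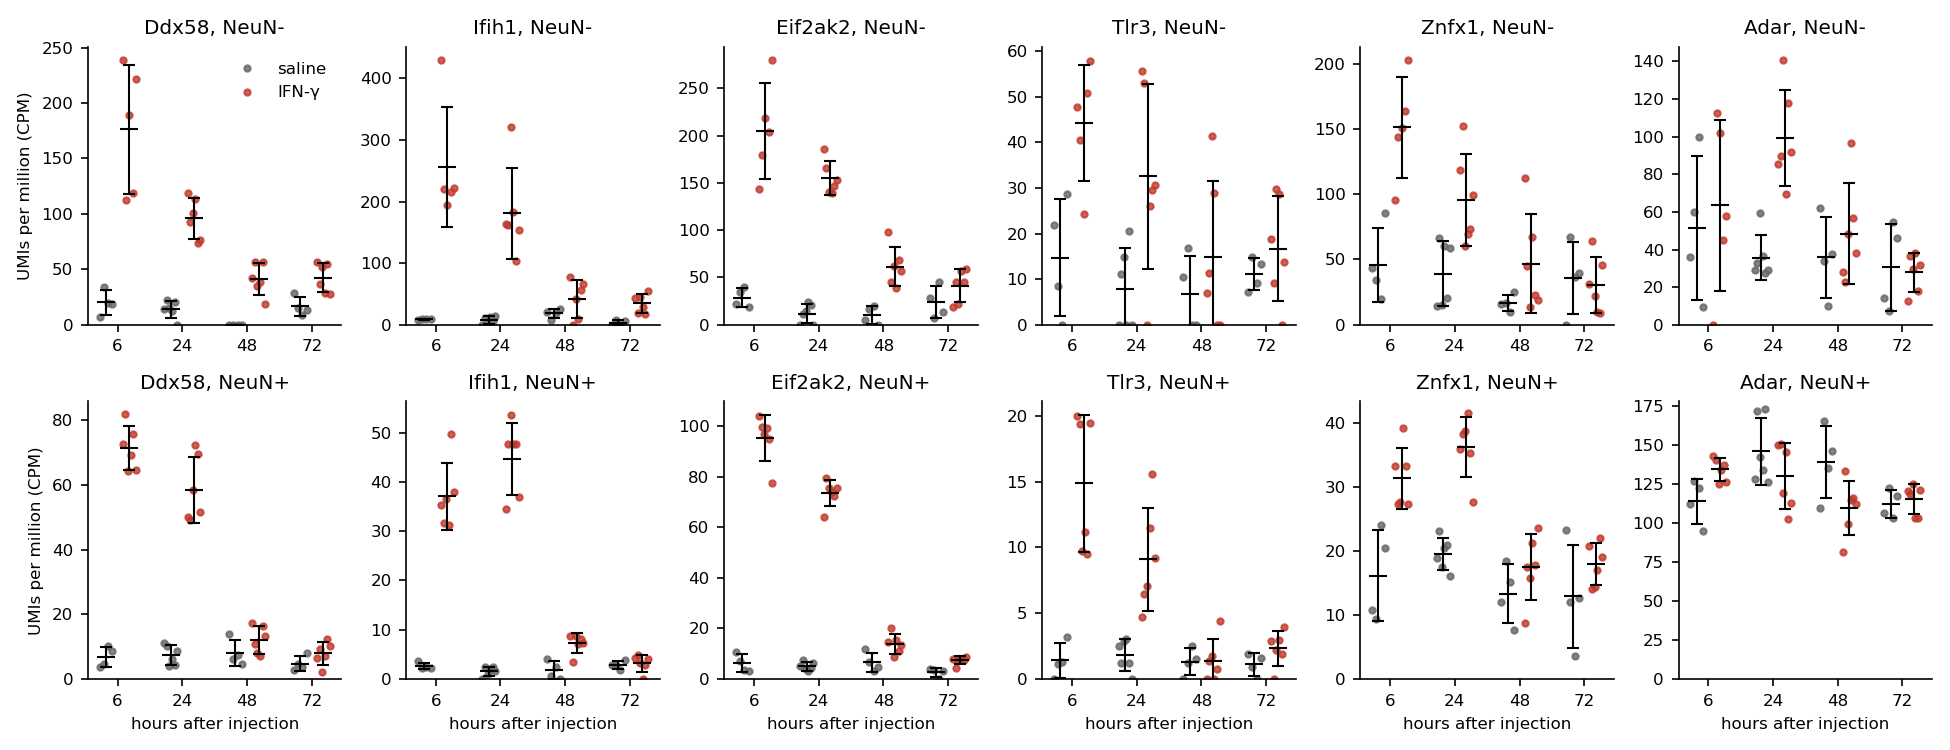
CPM of Ddx58, Ifih1, Eif2ak2, Tlr3, Znfx1 and Adar in every well against hours after injection, with NeuN− nuclei in the upper and NeuN+ nuclei in the lower row, each panel on its own scale. Points are wells (grey saline, red IFN-γ) and bars the mean ± SD. The Eif2ak2 IFN-γ wells of NeuN+ nuclei lie at 77.7 to 104 CPM at 6 h and at 4.30 to 8.75 CPM at 72 h, and the Adar wells of the same fraction overlap between treatments at every time.

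**Figure D3:**
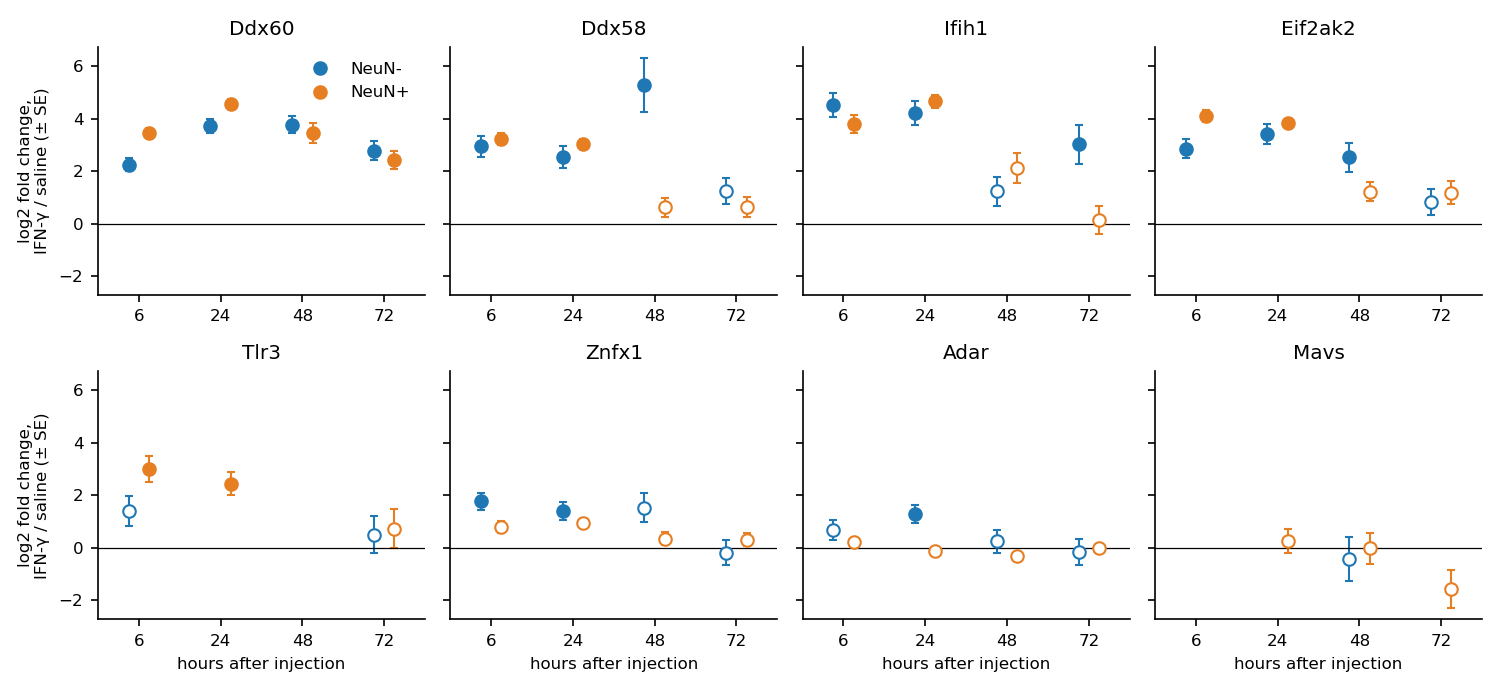
Log2 fold change of IFN-γ over saline ± SE (edgeR) for 8 members, against hours after injection, with NeuN− in blue and NeuN+ in orange. Filled points were called and open points were not, and members not tested have no point (Dhx58, tested in 1 comparison, is left out). Ddx60 is filled in all 8 positions. The Ddx58 point of NeuN− nuclei at 48 h is set against saline wells at 0 UMIs, so its height depends on the prior count and is no bound.

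The fractions were first compared without IFN-γ, over 18 saline wells each. Of the 4 members that passed the filter, Ddx60 was lower in NeuN+ than in NeuN− nuclei (log2 −2.63 ± 0.29, adjusted p = 1.1e-12, edgeR) and Adar was higher (log2 1.82 ± 0.15, adjusted p = 9.5e-18). Ddx58 (log2 −0.84, adjusted p = 0.031) and Znfx1 (log2 −0.97 ± 0.24, adjusted p = 4.1e-04) were not called, the second because of the fold limit. Of all genes, 36.4% were called in this comparison, so 2 of 4 is near the background. With no filter on low counts, 6 members were called, Ifih1, Ddx60, Tlr3, Mavs and Eif2ak2 lower and Adar higher in NeuN+ nuclei.

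The effect of IFN-γ was then compared between the fractions in a single fit for each time, as the NeuN+ minus the NeuN− log2 fold change. Adar at 24 h was the only member called, at −1.60 ± 0.35 (adjusted p = 8.1e-04, edgeR), 1 of 9 members tested at that time. The call of Adar was lost with NeuN+ wells thinned to the depth of NeuN− wells. For Ddx60 the differences were 1.15 ± 0.42 (adjusted p = 0.12), 0.60 (adjusted p = 0.55), −0.42 (adjusted p = 0.96) and −0.36 (adjusted p = 0.94) at 6, 24, 48 and 72 h. The larger fold of Ddx60 in NeuN+ nuclei at 6 and 24 h did thus not pass the test of the difference. None of 9, 8 and 8 members was called at 6, 48 and 72 h, where 1.01%, 0.0709% and 0.299% of all genes were, and at 24 h 2.49% of all genes were called.

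The change of the effect over time was fitted within each fraction. From 6 to 24 h, between which the IFN-γ wells also differed in sex-linked RNA, no member was called in NeuN− (8 tested) or NeuN+ nuclei (9 tested), against 1.85% and 0.328% of all genes. For Ddx60 the change was 1.63 ± 0.46 in NeuN− (adjusted p = 0.017, edgeR) and 1.07 ± 0.40 in NeuN+ nuclei (adjusted p = 0.21). From 24 to 72 h, between which the saline wells differed in sex-linked RNA, 1 of 8 members was called in NeuN− nuclei, against 2.79% of all genes. The effect on Eif2ak2 fell there by 2.68 on the log2 scale (SE 0.73, adjusted p = 0.0091, edgeR).

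In NeuN+ nuclei, 3 of 9 members were called from 24 to 72 h, against 0.605% of all genes. The effect fell by 4.52 ± 0.67 for Ifih1 (adjusted p = 3.9e-06, edgeR), by 2.64 ± 0.55 for Eif2ak2 (adjusted p = 0.0014) and by 2.39 ± 0.49 for Ddx58 (adjusted p = 0.0014), on the log2 scale. For Ddx60 the change was −1.06 in NeuN− (adjusted p = 0.44) and −2.10 ± 0.62 in NeuN+ nuclei (adjusted p = 0.044), and neither was called. Ddx60 in NeuN+ nuclei was called, at −2.65 (adjusted p = 0.0051), when saline replicate 2 of 24 h was left out, the well with 13.1 CPM. The calls of Ddx58 and Eif2ak2 in NeuN+ nuclei were lost without saline replicate 4 of 72 h, that of Eif2ak2 also without saline replicate 1 or 2 of 72 h, and the NeuN− call of Eif2ak2 was lost in 19 of 41 fits that left out 1 well.

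Genes around the sensors were followed in fixed lists of the pathway. Of 11 partners of the sensors, 3 of 8 tested rose in NeuN− nuclei after 6 h (24 h: 2 of 8), and 1 of 10 rose in NeuN+ nuclei at each of these times, against 6.09% and 9.61% (NeuN−) and 1.11% and 1.66% (NeuN+) of all genes called. These were Zc3hav1, the antiviral protein ZAP (log2 2.83 and 2.69 in NeuN−, 1.69 and 2.04 in NeuN+ nuclei), Rnf125, a ubiquitin ligase that limits RIG-I (2.29 and 1.73 in NeuN−), and Trim25, a ubiquitin ligase of RIG-I (2.21 in NeuN− at 6 h). None was called at 48 or 72 h.

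Of 15 adaptor and kinase genes downstream of the sensors, 2 of 8 rose in NeuN− nuclei at 6 h, 1 of 7 at 24 h, and 2 of 9 and 1 of 9 in NeuN+ nuclei, of which 1 of 7 is near the 9.61% of all genes called in that fit. They were Ripk1, a kinase of several receptor pathways (log2 2.52 and 1.16 in NeuN−, 1.46 in NeuN+ at 6 h), and Irf7, the transcription factor of type I interferon genes. Irf7 was called at 3.39 and 3.76 in NeuN+ nuclei at 6 and 24 h and in NeuN− nuclei at 6 h, where no saline well had a UMI of it. No gene was called in any of the 8 comparisons among those tested of 4 other lists. Tested were 1 to 2 of 5 endosomal nucleic acid receptors, 5 to 8 of 8 eIF2 kinases and stress response genes, 13 to 17 of 18 other RNA helicases and double-stranded RNA binding proteins, and 2 of 6 genes of type I interferons and their receptor. Ifnb1 had 1 UMI in 84 wells and 0 in the single nuclei, and the 14 listed Ifna genes had 2 UMIs together.

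Factors that act downstream of the interferon receptors were also called. Stat2 rose by 3.16, 3.87, 2.37 and 1.54 on the log2 scale in NeuN− nuclei and by 2.62 and 2.73 in the early NeuN+ wells. Irf9 rose by 2.08 at 24 h in NeuN− and by 1.59 and 2.31 in NeuN+ nuclei. Of the genes kept as controls of the response, B2m, the light chain of MHC class I, was called in all 8 comparisons (1.65 to 4.23), as Ddx60 was, while Irf1, a transcription factor of the early interferon response, was called at 6 and 24 h in both fractions (5.94 to 6.96).

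Genes with a pattern like that of Ddx60 were ranked by Pearson's r over the 16 group means of log2(CPM + 1), among 11738 genes with a mean of at least 5 CPM. The points share wells, depth and fraction, so r is a description. The 5 nearest were Nlrc5, the transactivator of MHC class I (r = 0.960), the GTPase genes Irgm2 (0.958), Iigp1 (0.955) and Gbp7 (0.951), and Samd9l (0.942). In NeuN− nuclei Nlrc5 fell from 649 ± 88.1 CPM at 6 h after IFN-γ to 121 ± 32.2 CPM at 72 h, with 27.7 ± 21.6 and 7.11 ± 5.88 CPM after saline. Of the other members, Eif2ak2 was nearest (r = 0.919, rank 15), followed by Ifih1 (0.889, rank 40), Tlr3 (0.845, rank 75), Znfx1 (0.829, rank 87) and Ddx58 (0.788, rank 132), while Mavs (0.207) and Adar (−0.365) did not follow it.

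The single nuclei numbered 1016 from the saline mouse and 2574 and 1109 from the IFN-γ mice, with medians of 14645.5, 9404.5 and 11767 UMIs per nucleus and 0 barcodes shared between libraries. Clusters were rebuilt from the counts and named after the fixed marker list with the highest score, where enough of its markers were detected. A marker among the 10 leading genes was required of shallow clusters only. Named clusters such as cluster 0, oligodendrocyte-like, had 0 of their own markers there. Over whole libraries, Ddx60 was at 1.41, 14.0 and 17.9 CPM in the saline mouse and the IFN-γ mice. UMIs were summed per mouse and class, and a member was called when its log2 fold change was beyond 3 overall and in each IFN-γ mouse at an adjusted p below 0.01 (edgeR). The lone saline mouse is assumed to vary like the IFN-γ mice, and intervals given for the nuclei are 95% and cover counting error only.

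In oligodendrocyte-like nuclei (191 of the saline mouse, 744 and 306 of the IFN-γ mice), Ddx60 had 0 UMIs after saline and 68.9 and 100.4 CPM after IFN-γ, at least 18.5-fold higher against a floor of 3 UMIs. Ddx58 also had 0 UMIs after saline and 23.3 and 27.7 CPM after IFN-γ, at least 5.75-fold higher, and Eif2ak2 rose from 1.44 CPM, 1 UMI, to 24.1 and 24.2 CPM (log2 4.06 ± 0.84, adjusted p = 1.4e-04, edgeR; ratio 16.8, interval 2.94 to 668). These 3 members were called, against 0.593% of all genes. Ifih1 went from 1.44 to 15.6 and 29.1 CPM (log2 3.87, adjusted p = 9.0e-04) but was under the fold limit in 1 mouse, and Znfx1 had 43.2, 44.4 and 63.0 CPM. DESeq2 called only Ddx60 of these. Of the clusters in this class, 1 held 0 saline nuclei and 362 and 167 IFN-γ nuclei and was led by interferon-inducible genes such as Iigp1, so the class is made of different clusters in the 2 treatments.

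In astrocyte-like nuclei (21, 136 and 37), Ddx60 had 0 UMIs after saline and 118 and 150 CPM after IFN-γ, at least 4.61-fold higher (adjusted p = 4.5e-04, edgeR), and it was the only member called, against 0.116% of all genes. DESeq2 did not call it. Eif2ak2 went from 18.3 to 114 and 107 CPM (log2 2.59, adjusted p = 0.14). Tlr3 had 91.6, 95.3 and 103 CPM (log2 0.11), with intervals that overlapped widely.

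Cluster 13, with 31, 49 and 54 nuclei, held all 7 microglia markers and was microglia-like by their summed level, given below. The naming rule left it unnamed because its nuclei were shallow and none of the markers was among its 10 leading genes. The median was 3416 UMIs, and the leading genes included Inpp5d, Ly86, Cd74, Fyb and Ctss. Here Ddx60 had 167 CPM after saline and 128 and 207 CPM after IFN-γ, a ratio of 1.02 with an interval of 0.572 to 1.96. Ifih1 (107, 143 and 142 CPM), Ddx58 (119, 81.7 and 77.5 CPM), Eif2ak2 (179, 265.5 and 207 CPM) and Tlr3 (131, 81.7 and 94.7 CPM) likewise had UMIs in the saline mouse. Dhx58 had 0 UMIs in the saline mouse and 17 in the IFN-γ mice together (adjusted p = 0.21, edgeR). Adar had 2 and 39 UMIs (ratio 3.82, interval 0.990 to 32.7, adjusted p = 0.28, edgeR). None of the members was called there, against 0.808% of all genes. Summed microglia markers were at 9526, 5182 and 5686 CPM in this cluster. In the named classes they reached at most 152 CPM, in VGLUT2-like neurons of the saline mouse. The saline nuclei of cluster 13 also held 524 CPM of neuron and 310 CPM of astrocyte markers. Whether the UMIs of members there came from the microglia-like nuclei themselves or from RNA of other cells was not tested. In oligodendrocyte-like nuclei, where Ddx60 reached 100.4 CPM, microglia markers were at 44.6, 61.5 and 81.0 CPM. Their part in the rise of Ddx60 there was not tested.

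In neurons Ddx60 was at 0.164 to 1.02 CPM after saline and at 2.997 to 7.31 CPM after IFN-γ. In VGLUT2-like neurons (241, 643 and 254 nuclei) it had 1.02, 4.34 and 4.12 CPM, a ratio of 4.20 with an interval of 1.71 to 13.4. In GABA-like neurons (305, 576 and 275) it had 0.164, 2.997 and 4.18 CPM, on 1 UMI against 55 (ratio 21.0, interval 3.61 to 842), and in DA-like neurons (174, 153 and 109) 0.751, 7.31 and 3.59 CPM (ratio 7.51, interval 2.32 to 38.6). The GABA-like class was made of different clusters by mouse, with cluster 8 at 3.61%, 29.7% and 4% of it, cluster 9 at 27.5%, 3.65% and 26.2%, and cluster 23 at 0, 47 and 1 nuclei, in the order saline and IFN-γ mice. In this class VGLUT2 neuron markers summed to 310, 570 and 191 CPM and GABA neuron markers to 549, 528 and 555 CPM. Clusters also differed by mouse in VGLUT2-like neurons (cluster 18 at 19.5%, 1.56% and 12.6%) and DA-like neurons (cluster 11 at 34.5%, 24.2% and 51.4%). The intervals of the 3 ratios all lie above 1, and all cover counting error only, with 1 saline mouse. The bulk NeuN+ IFN-γ wells of 48 h had a higher mean of Ddx60, 24.5 CPM. Their oligodendrocyte markers summed to a median of 398 CPM, against 34.6 to 48.2 CPM in the neuron classes of the IFN-γ mice. What made the bulk level of Ddx60 higher was not tested. Eif2ak2 in GABA-like neurons had 4.43, 15.3 and 12.4 CPM (ratio 3.20, interval 2.14 to 4.97), and Adar had 132, 127 and 121 CPM in VGLUT2-like and 145, 148 and 133 CPM in GABA-like neurons.

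None of the members was called in the neuron classes with edgeR, against 0.0375%, 0.00534% and 0.0566% of all genes in VGLUT2-like, GABA-like and DA-like neurons. At an unadjusted p under 0.05, 1199, 366 and 491 genes of all those tested passed in the 3 classes, and 1270 in cluster 13. With a fold limit of log2 1 in place of 3, the shares of all genes called were 1.05% in oligodendrocyte-like nuclei, 0.147% in astrocyte-like nuclei, 1.49% in cluster 13 and 0.0589%, 0.00534% and 0.101% in the neurons.

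**Figure D4:**
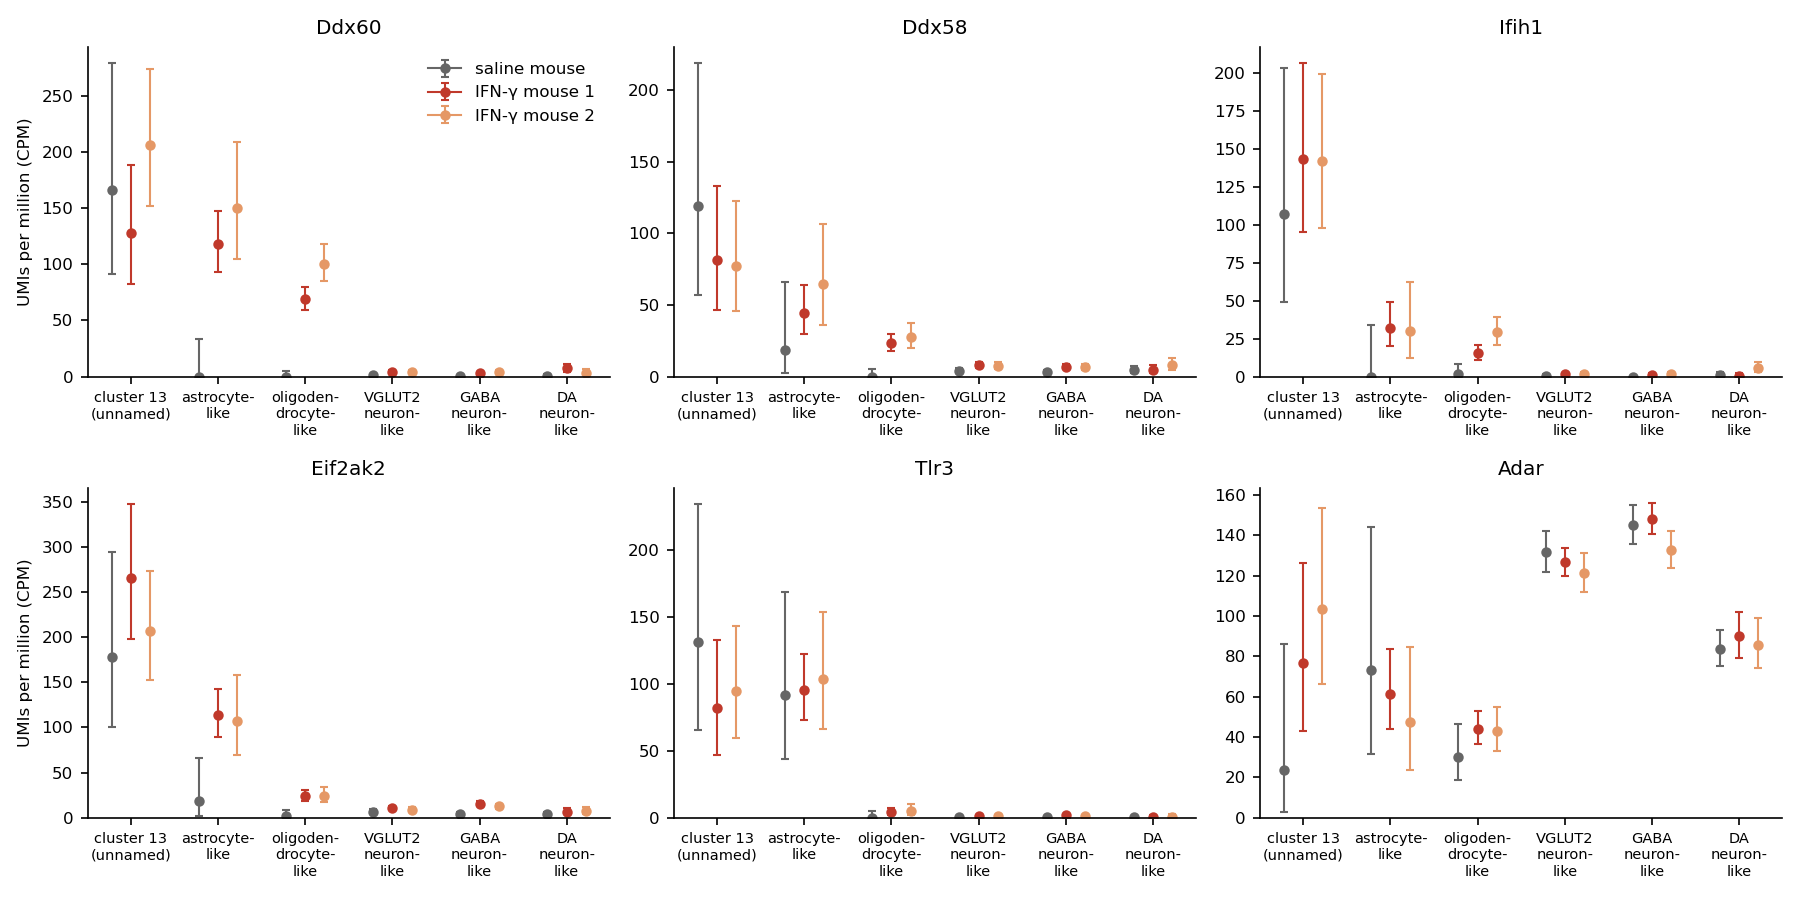
CPM of Ddx60, Ddx58, Ifih1, Eif2ak2, Tlr3 and Adar in the summed nuclei of each class, for the saline mouse (grey) and the IFN-γ mice (red and orange), each panel on its own scale. Bars are exact 95% Poisson intervals of the count. Ddx60 is at 0 in astrocyte-like and oligodendrocyte-like nuclei of the saline mouse and at 167 CPM in its cluster 13, and Adar is at 83.8 to 148 CPM in the 3 neuron classes.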

How the data were processed

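The authors deposited 2 tables of raw UMI counts. For the bulk wells they trimmed poly(A), aligned with STAR to GRCm38 with Gencode vM10, assigned reads to wells by barcode and collapsed reads of 1 UMI and gene. For the single nuclei they counted introns, filtered doublets by marker genes and left out rare or ambiguous groups. The deposited table held 4699 nuclei, as many as the study kept after these steps, and no further doublet caller was run. The deposited counts were not normalized, and UMIs limit the duplication that PCR adds.

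The members, the lists of genes and the comparisons were chosen with earlier results of these data known. The named genes are the 9 members, the genes of 8 lists (of which 1 holds control genes of the response) that were called or answer a named question, and the 5 nearest to Ddx60. Bulk comparisons used R 4.3.3, edgeR 4.0.16 and limma 3.58.1: filterByExpr with a minimum count of 2 and a total of 10, TMM factors, the quasi-likelihood test within fraction and time, and Benjamini-Hochberg adjustment over all genes tested. CPM use the UMIs of a well or class. SE is the log2 fold change divided by the root of F. DESeq2 1.42.0 served as an alternative, with RLE factors, other filters, saline wells of all times, 1 fit of all wells, NeuN+ wells thinned to 110247.5 UMIs, and each well left out. Fits with 84 wells as separate samples were added after the data were seen.

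Nuclei were clustered in Python 3.11.15 (leidenalg 0.10.2 on igraph 0.11.9, scikit-learn 1.9.0, pandas 2.3.3, numpy 2.4.6, scipy 1.17.1, with plots by matplotlib 3.10.9) by Leiden at resolution 1, from 15 neighbours on 30 principal components of 2000 variable genes. Sums per mouse and class were tested with edgeR for genes with at least 10 UMIs, with a prior of 0.5 UMI in each mouse's log2 ratio. Intervals are exact Poisson for CPM and exact binomial for ratios. Only the bulk fits of IFN-γ and of the fraction difference at 24 h and the fit of the GABA-like sums were tested on simulated data. Changes were set there only in genes above a minimum expected count, so low members were not covered. Gene spans are those of Gencode vM21 on GRCm38, read from the reference annotation. A gene of the lists is not reported here.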

Additional observations from a re-analysis of the deposited data

Results flagged for a closer look

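Of 142 groups of wells tested for a single well far from the rest, 15 were flagged at Dixon's 95% level, and chance flags about 1 group in 20. In 6 of them Dhx58 was at 0 in every other well and 1 to 3 UMIs made the flag. These were NeuN− saline 24 h replicate 1 (14.43 CPM), NeuN− saline 48 h replicate 2 (16.85 CPM), NeuN+ saline 48 h replicate 2 (1.229 CPM), NeuN− IFN-γ 6 h replicate 3 (9.704 CPM), NeuN− IFN-γ 48 h replicate 1 (21.02 CPM) and NeuN− IFN-γ 72 h replicate 6 (4.559 CPM).

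Ifih1 was flagged in 4 IFN-γ groups. It was far above the rest in NeuN− nuclei at 6 h (replicate 1, 429.3 CPM, the shallowest well, with the next at 221.9) and at 24 h (replicate 3, 321.4 CPM, next 182.6), and in NeuN+ nuclei at 6 h (replicate 5, 49.76 CPM), and far below in NeuN+ nuclei at 48 h (replicate 2, 3.375 CPM, next 7.087). Eif2ak2 was low in NeuN+ IFN-γ wells at 6 h (replicate 6, 77.65 CPM, next 94.77) and at 72 h (replicate 2, 4.297 CPM, next 7.641). Ddx60 was high in NeuN+ saline 24 h replicate 2 (13.06 CPM, next 5.839), Adar in NeuN− saline 24 h replicate 3 (59.32 CPM, next 36.35), and Mavs was at 0.0 CPM in NeuN− IFN-γ 72 h replicate 2 (next 6.263).

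The remaining flags mark effects of IFN-γ that differed between groups by a test of the difference (edgeR). The effect on Adar at 24 h differed between the fractions (NeuN+ minus NeuN−, log2 −1.6). The effect at 72 h differed from that at 24 h for Eif2ak2 in NeuN− nuclei (log2 −2.676) and for Ddx58 (−2.392), Ifih1 (−4.517) and Eif2ak2 (−2.641) in NeuN+ nuclei. Different mice were used at each time, so time cannot be told apart from the mice.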

How the results depend on the processing

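The depth of NeuN− wells and the single saline mouse limited what could be detected, and low members depended on the filter. No value of a member that was called changed sign. No paired analysis was possible because the labels carry neither the mouse behind each well nor replicate numbers. The replicate numbers used here were given in accession order. Counts of called members that moved by over 1.5 times are given here. With filterByExpr defaults, 2 members were called in NeuN− at 24 h, 1 at 48 h and 1 at 72 h, and 1 between saline fractions, since fewer members were tested. Without a filter, 1 was called in NeuN− at 72 h, 6 between saline fractions, 0 from 24 to 72 h in NeuN− and 1 in GABA-like neurons. DESeq2 called 1 in NeuN− at 72 h, 6 between saline fractions, 1 in oligodendrocyte-like and 0 in astrocyte-like nuclei. With NeuN+ wells thinned to the median NeuN− depth, 3 were called in NeuN+ at 6 h, 0 at 48 h and 0 at 72 h, where Ddx60 no longer passed the filter, and 0 for the fraction difference at 24 h. Saline wells of all times gave 3 in NeuN+ at 48 h. With 84 wells as separate samples, 0 were called from 24 to 72 h in NeuN−. The cause of the other moves was not tested.

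Leaving out 1 well gave 5 to 5, 5 to 7, 2 to 3 and 1 to 2 called members in NeuN− at 6, 24, 48 and 72 h, and 5 to 5, 5 to 6, 1 to 1 and 1 to 1 in NeuN+. It gave 0 to 0, 1 to 1, 0 to 0 and 0 to 0 for the fraction differences, 3 to 4 between saline fractions, 0 to 1 and 0 to 0 from 6 to 24 h (NeuN−, NeuN+), and 0 to 1 and 1 to 4 from 24 to 72 h. Between saline fractions each of 36 fits called more members than the 2 of the main fit. There Znfx1 passed the fold limit in 17 fits, and Ddx58 passed the filter in 18 but was not called. The further calls were of members that did not pass the filter in the main fit. Without 1 IFN-γ mouse there is no residual degree of freedom, so members past the fold limit were only counted, at 3 to 4 in oligodendrocyte-like nuclei, 1 to 2 in astrocyte-like nuclei, 0 to 0 in cluster 13, 0 to 0 in VGLUT2-like, 2 to 2 in GABA-like and 0 to 1 in DA-like neurons. Of called members, DESeq2 kept 32 and lost 7, among them Ifih1 in NeuN− at 72 h and Ddx60 in astrocyte-like nuclei, and RLE factors kept 39 and lost 0. Without saline replicate 2 of 24 h, Ddx60 was also called from 6 to 24 h in NeuN−.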
